A study of Homo sapiens with 12 samples.

Results

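The proteasome is the barrel-shaped protease that degrades proteins tagged with ubiquitin. Its 20S core is built from alpha-ring subunits (PSMA genes), which gate the entrance, and beta-ring subunits (PSMB genes), 3 of which carry the cutting sites. Its 19S cap is built from an ATPase ring (PSMC genes), which unfolds substrates, and non-ATPase subunits (most PSMD genes), which bind and strip the ubiquitin chain. When the cutting sites are blocked by a proteasome inhibitor, cells usually raise nearly all of these genes together through the transcription factor NFE2L1 (also called NRF1), a feedback known as the bounce-back. Mantle cell lymphoma is a B cell cancer that is treated in the clinic with proteasome inhibitors.

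The proteasome genes were examined in 3 human mantle cell lymphoma cell lines, Mino, Rec-1 and SP-49, given a gamma-secretase inhibitor. Gamma-secretase cuts the Notch receptors, and blocking it stops Notch from reaching the nucleus, while the proteasome is a separate protease. Each line was cultured for 24 h with 1 µM compound E (the GSI group) or with 0.1% DMSO (the Mock group), 2 arrays each, 12 arrays in all. Mino was grown in 15% serum, and Rec-1 and SP-49 in 10%, so serum and line cannot be told apart when lines are compared. The labels do not say whether the 2 samples of a group came from separate cultures, so the p-values rest on the scatter of these samples alone, part or all of which could be technical.

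Members were all genes named PSMA, PSMB, PSMC or PSMD with a number, or PSME1 to PSME4, leaving out the interferon-induced immunoproteasome genes PSMB8, PSMB9 and PSMB10. By symbol 40 human genes met this rule and 34 were measured, of 19775 genes in all. They were 6 alpha-ring genes, 7 beta-ring genes, 5 ATPases, 9 non-ATPases, 3 assembly chaperones of the cap (PSMD5, PSMD9 and PSMD10), 3 activators (PSME1, PSME3 and PSME4) and the testis subunit PSMA8. PSMA6 and PSME2 lay only on probe sets naming several genes, and PSMC5, PSMD7, PSMD13 and PSMB11 were not analysed here. Levels were log2 values, so 1 unit is a doubling, and each gene was read from the probe set that names it alone and had the highest mean. All members but PSMA8 lay above the median of all probe sets, 1.99. PSMA8 had 1.39 and 1.53 in Mino GSI, against 1.19 and 1.19 in Mino Mock, at the low end of the scale in every group. A change is GSI minus Mock in log2 units, and a gene was called when its Benjamini-Hochberg adjusted p from limma, over all 19775 genes, was under 0.05.

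HES1, a direct target of Notch, fell in Rec-1 and SP-49. It had 2.23 and 1.70 in Rec-1 GSI, against 5.86 and 5.67 in Rec-1 Mock, and 2.53 and 2.33 in SP-49 GSI, against 6.11 and 5.77 in SP-49 Mock. MYC, a growth-promoting transcription factor, fell by 1.53 in Rec-1 and by 1.55 in SP-49. In Mino neither was called (changes of −0.07 for HES1 and 0.13 for MYC). Of 5 B cell markers, MS4A1, CD79A, CD79B and PAX5 had group means between 7.15 and 11.22 in all 6 groups, and CD22 between 3.92 and 5.58. In Rec-1 CD79B rose by 1.06 and MS4A1 by 0.51, and the other B cell markers were not called. Taken as the mean of all its probe sets, CD79B had 0.29 and was not called, while MS4A1 had 0.49 and was still called. Of 3 mantle cell lymphoma markers, CCND1 had group means between 8.32 and 10.74. SOX11 had means of 4.87 and 4.90 in Rec-1 GSI and Mock, and between 7.42 and 8.66 in the other lines. CD5 had means of 4.02 and 4.37 in Mino GSI and Mock, and between 2.40 and 2.74 in Rec-1 and SP-49. None of these was called with the inhibitor. Of 4 T cell markers, CD3D fell by 0.63 in Rec-1 (4.17 in GSI, against 4.80 in Mock, as group means), while CD3E, CD3G and CD2 had means of 1.59 to 2.10 in Rec-1 GSI and of 1.69 to 2.53 in Rec-1 Mock; the part of these markers in the results below was not tested. Since RNA was measured in bulk, fewer cells of a type and less RNA per cell cannot be told apart.

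None of the 34 members was called higher with the inhibitor in any of the 3 lines. In Mino none of the 34 members was called, beside 0% of all genes, and none had even an unadjusted p under 0.05 in limma, against 4.90% of all genes. In Rec-1 4 members fell and none rose, beside 3.62% of all genes that fell and 2.15% that rose, and 9 members (26.5%) had an unadjusted p under 0.05, against 19.2% of all genes. In SP-49 none was called, beside 0.192% of all genes, and 2 members (5.88%) had an unadjusted p under 0.05, against 8.87% of all genes. On the probe sets read, the upper 95% limit of all 34 members lay under a 1.5-fold increase (0.58) in every line. The highest single limit was 0.56 in Mino (PSMA8), 0.37 in Rec-1 (PSMB4) and 0.50 in SP-49 (PSME3). The intervals were not adjusted for the number of genes. Dimmer probe sets of some members had limits above 0.58. Examples were 0.677 for PSMB2 in Mino, 0.633 for PSMC2 in Rec-1 and 0.719 for PSMD4 in SP-49. A change of 1 log2 unit planted in simulated data was recovered in 58.2% of genes in Mino, 67.2% in Rec-1 and 74.6% in SP-49. One of 0.5 was recovered in 7.5%, 9.0% and 14.9%. The simulation gave a gene the same spread in every line, so these shares do not rank the lines. Far fewer genes were planted with a change than were called in Rec-1, so recovery there may have differed. In that setting small changes of single genes were mostly not detectable with 2 arrays a group.

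**Figure D1:**
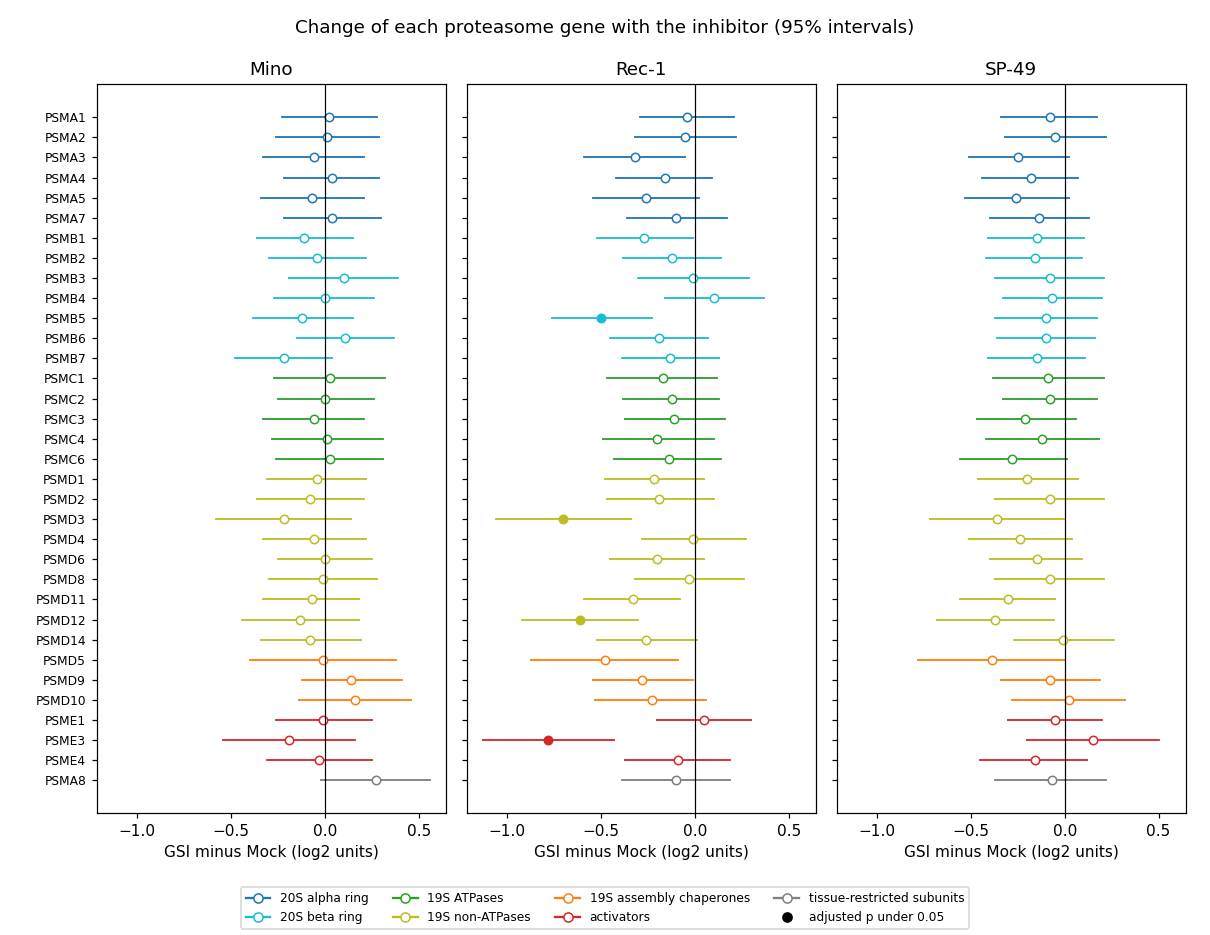
Change of each of the 34 proteasome genes, GSI minus Mock in log2 units, in Mino, Rec-1 and SP-49. Points are estimates, bars are 95% intervals, colours mark the role, and filled points had an adjusted p under 0.05. The 4 filled points are all in Rec-1 and all left of 0, and no bar reaches past 0.56.

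The members stood slightly below 0 in Rec-1 and SP-49, and the cause of this shift was not tested. The median change of the 34 members was −0.01 in Mino, −0.18 in Rec-1 and −0.13 in SP-49, beside 0.00, 0.01 and −0.02 over all genes. A value below 0 was found for 32 of 34 members in Rec-1 (48.0% of all genes), for 32 of 34 in SP-49 (54.2% of all genes) and for 21 of 34 in Mino (50.8% of all genes). In Rec-1 both GSI arrays lay below both Mock arrays for 23 members (22.3% of all genes) and above both for 2 (22.9%). In SP-49 these counts were 25 below (24.4% of all genes) and 0 above (18.1%), and in Mino 8 below (17%) and 6 above (16.2%). The SD of the change was 0.20 among members and 0.34 over all genes in Rec-1, 0.11 and 0.24 in SP-49, and 0.10 and 0.19 in Mino. These SDs are not like for like, since nearly all members are bright and all genes include many dim ones. The median standard error of a change was 0.122 among members and 0.164 over all genes. The part of brightness in the SDs was not tested.

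Array by array the shift was similar within a group. Set against its line's Mock mean, the median member was at −0.169 and −0.210 on the Rec-1 GSI arrays and at −0.126 and −0.143 on the SP-49 GSI arrays. It was at −0.030 and −0.009 on the Mino GSI arrays, inside the −0.036 and 0.036 of the Mino Mock arrays. The spread of values over all probe sets was narrowest on the second Rec-1 GSI array (SD 1.95) and the second SP-49 GSI array (SD 2.0), against 2.01 to 2.05 on the others. With both of those arrays left out the member medians were −0.169 in Rec-1 and −0.126 in SP-49. When the arrays were quantile-normalized again, so that all had the same spread, the medians were −0.108 in Rec-1, with 26 of 34 members below 0, and −0.091 in SP-49. As a measure of RNA integrity, the 3′ minus the 5′ signal of GAPDH was 0.59 and 0.49 in Rec-1 GSI, against 0.41 and 0.37 in Rec-1 Mock, and 0.35 and 0.44 in SP-49 GSI, against 0.35 and 0.34 in SP-49 Mock. In Mino, where the member median was −0.01, it was 0.31 and 0.39 in GSI, against 0.26 and 0.25 in Mock. The same measure on ACTB was 2.29 and 1.92 in Rec-1 GSI, against 2.0 and 1.83 in Rec-1 Mock, 2.30 and 2.16 in SP-49 GSI, against 2.29 and 2.36 in SP-49 Mock, and 2.0 and 1.94 in Mino GSI, against 1.73 and 1.79 in Mino Mock. The part of RNA integrity in the member shift was not tested.

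**Figure D2:**
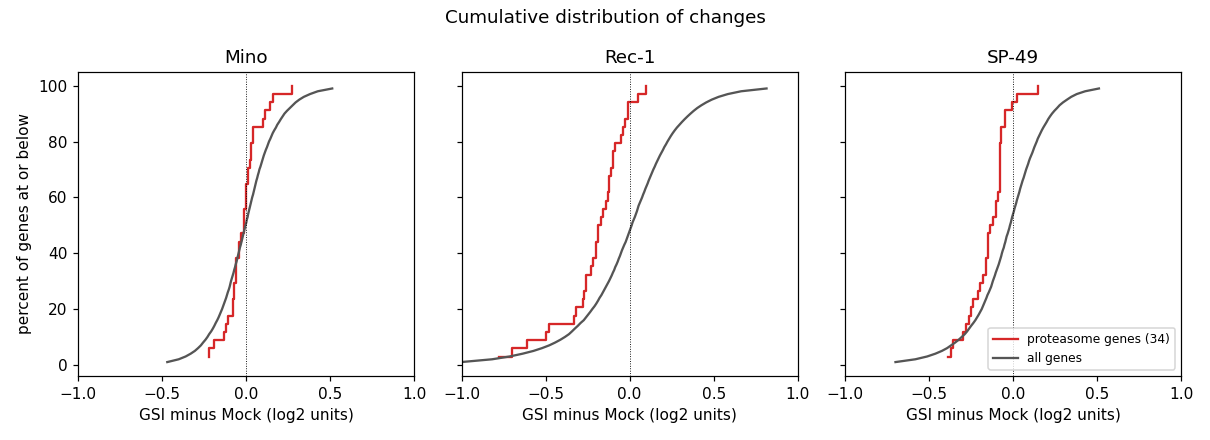
Cumulative percent of genes at or below a given change (GSI minus Mock, log2 units, shown from −1 to 1), for the 34 proteasome genes as red steps and for all genes as grey lines. The red steps lie left of the grey line over most of the range in Rec-1 and SP-49 (medians −0.18 and −0.13) and cross it near 0 in Mino.

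Grouped by role, the median changes in Rec-1 lay between −0.09 for the activators and −0.28 for the assembly chaperones. The 6 alpha-ring genes had a median change of −0.13 in Rec-1 and −0.16 in SP-49, all 6 below 0 in both lines and none called. Among them PSMA3 had −0.32 in Rec-1 (adjusted p = 0.175). The 5 ATPases lay within a narrow band in Rec-1, from −0.20 to −0.11, and none was called. The 9 non-ATPases had a median of −0.22 in Rec-1 and −0.20 in SP-49, all 9 below 0 in both lines, and 2 of them fell in Rec-1. Of the 3 assembly chaperones PSMD5 had the lowest value, −0.48 (adjusted p = 0.162).

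In the beta ring the called gene was PSMB5, which encodes the chymotrypsin-like cutting site and is the main target of clinical proteasome inhibitors. PSMB5 had 7.67 and 7.64 in Rec-1 GSI, against 8.09 and 8.22 in Rec-1 Mock. Both GSI arrays were low and the groups did not overlap. PSMB5 fell by 0.50 in Rec-1 (95% interval −0.76 to −0.23, limma adjusted p = 0.0349), a 1.41-fold decrease. It had 7.04 and 7.15 in SP-49 GSI, against 7.23 and 7.16 in SP-49 Mock, and 7.26 and 7.22 in Mino GSI, against 7.27 and 7.43 in Mino Mock. The changes there were −0.10 in SP-49 and −0.12 in Mino, and neither was called. The rest of the beta ring in Rec-1 ran from −0.27 for PSMB1 to 0.10 for PSMB4, both of them structural subunits without a cutting site.

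PSMD3, a scaffold subunit of the cap's lid, had 5.75 and 6.02 in Rec-1 GSI, against 6.55 and 6.61 in Rec-1 Mock. Both GSI arrays lay below both Mock arrays. PSMD3 fell by 0.70 in Rec-1 (95% interval −1.06 to −0.34, limma adjusted p = 0.0305), a 1.62-fold decrease. It had 6.12 and 5.83 in SP-49 GSI, against 6.15 and 6.52 in SP-49 Mock, a change of −0.36 that was not called (adjusted p = 0.568). In Mino it had 6.71 and 6.84 in GSI, against 6.94 and 7.04 in Mock, a change of −0.22. The GSI arrays were below the Mock arrays in all 3 lines, as they also were for PSMA3, PSMB1, PSMB5, PSMB7 and PSMD11. Some gaps were very small, such as 9.34 against 9.35 for PSMA3 in Mino and 7.15 against 7.16 for PSMB5 in SP-49. In a single line the GSI arrays were below for 17% of all genes in Mino, 22.3% in Rec-1 and 24.4% in SP-49. The share of all genes with this pattern in all 3 lines was not counted, so nothing is drawn from it.

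PSMD12, another lid subunit, had 7.32 and 7.14 in Rec-1 GSI, against 7.86 and 7.82 in Rec-1 Mock, with no overlap. PSMD12 fell by 0.61 in Rec-1 (95% interval −0.92 to −0.30, limma adjusted p = 0.0290), a 1.52-fold decrease, and its other probe set gave −0.57. It had 7.04 and 6.92 in SP-49 GSI, against 7.35 and 7.35 in SP-49 Mock, again with no overlap. That change of −0.37 was the smallest adjusted p among members in SP-49 (0.464, shared with PSMD11 at −0.30) and was not called. In Mino PSMD12 had 7.06 and 7.01 in GSI, against 6.99 and 7.34 in Mock, and the groups overlapped.

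PSME3 encodes PA28 gamma, a nuclear activator that opens the core without ubiquitin. It had 5.94 and 6.24 in Rec-1 GSI, against 6.78 and 6.96 in Rec-1 Mock, with no overlap. PSME3 fell by 0.78 in Rec-1 (95% interval −1.13 to −0.43, limma adjusted p = 0.0153), a 1.72-fold decrease and the lowest value among members. Its 4 probe sets gave −0.65 to −0.78 in Rec-1. In SP-49 it had 6.58 and 6.85 in GSI, against 6.71 and 6.43 in Mock, a change of 0.15 with overlapping groups, but there its 4 probe sets disagreed, from −0.54 to 0.15. In Mino it had 7.20 and 7.34 in GSI, against 7.48 and 7.43 in Mock, a change of −0.19.

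PSME1, an interferon-induced activator subunit, had changes near 0. It had 9.03 and 9.06 in Rec-1 GSI, against 8.97 and 9.02 in Rec-1 Mock, a change of 0.05 (95% interval −0.20 to 0.30). The changes were −0.05 in SP-49 and −0.01 in Mino. PSME4, an activator of nuclear proteasomes, had −0.09 in Rec-1, and its 3 probe sets ran from −0.60 to −0.09.

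Over the average of the 3 lines 2 members fell and none rose, beside 1.39% of all genes that fell and 0.511% that rose. They were PSMD12 at −0.37 (limma adjusted p = 0.0463) and PSMD3 at −0.42 (adjusted p = 0.0470). Neither call stood without the narrow-range arrays or after quantile normalization, where the count was 0. For Rec-1 those counts were 2 and 1 in place of 4. The Rec-1 count was 0 without either Rec-1 Mock array, and 2 without either Rec-1 GSI array or either SP-49 Mock array. For the average it was 0 or 1 when any single array other than the first Rec-1 GSI array was left out. Over 21 recomputations the Rec-1 call was lost in 5 for PSME3, 7 for PSMD3, 9 for PSMD12 and 13 for PSMB5, and no sign was reversed.

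No member's response was shown to differ between lines. In limma 0 members were called for Rec-1 minus Mino (1.43% of all genes called), 0 for SP-49 minus Mino (0.0455%) and 0 for Rec-1 minus SP-49 (0.556%), and 4, 0 and 2 members had an unadjusted p under 0.05. The smallest adjusted p was that of PSME3 between Rec-1 and SP-49, with a difference of −0.93 (95% interval −1.42 to −0.43, adjusted p = 0.123). That size depended on the probe set read, which had a change of 0.15 in SP-49. The other PSME3 probe sets had −0.19, −0.54 and −0.29 there, so their differences between the lines were smaller. For PSMB5 the difference between Rec-1 and SP-49 was −0.40 (95% interval −0.77 to −0.02, adjusted p = 0.417), and for PSMD12 −0.24 (95% interval −0.68 to 0.20).

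**Figure D3:**
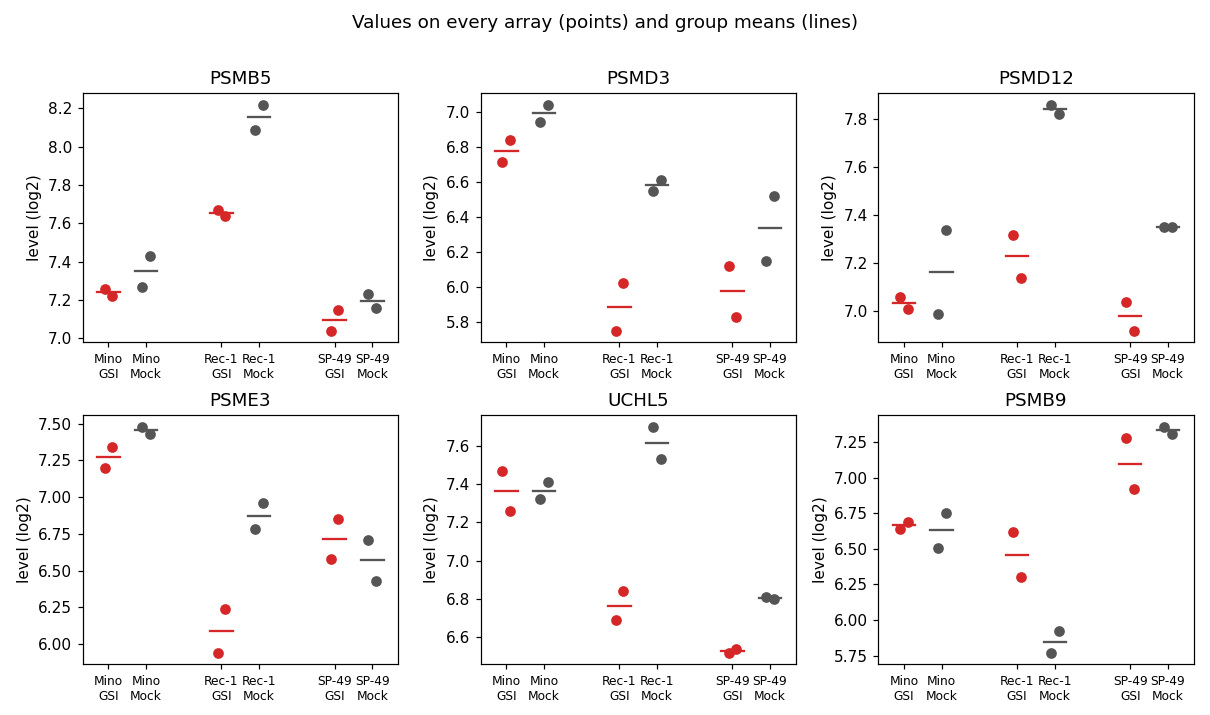
Level (log2) on every array, with each group's mean as a line, for the 4 members that fell in Rec-1 (PSMB5, PSMD3, PSMD12, PSME3) and for UCHL5 and PSMB9, which the rule leaves out; y axes differ between genes and do not start at 0. In Rec-1 the GSI points lie below the Mock points for the first 5 genes and above them for PSMB9.

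Short stretches around a motif in the promoters are shown for the called members and for PSME1, because NFE2L1 acts on proteasome genes through antioxidant response elements. The letters searched were TGACNNNGC, the core of that element, and CACGTG, the E-box bound by MYC, on both strands, from 250 bases before to 50 after each gene's start (RefSeq, GRCh38.p14). Sequences run 5′ to 3′ on the gene's strand, with the match in capitals.
PSMD3, antioxidant core, chr17:39980760-39980788, plus strand: tcccctttgtTGACTCGGCcatcggcctg
PSMD12, antioxidant core, chr17:67366724-67366752, minus strand: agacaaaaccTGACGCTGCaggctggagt
PSME1, antioxidant core, chr14:24136098-24136126, plus strand: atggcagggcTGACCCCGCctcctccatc
PSME3, E-box, chr17:42833345-42833370, plus strand: ctgcgcagcgCACGTGcacagcctcg

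A promoter was given for 29 of the 34 members. The antioxidant core was in 9 of 29 (31.0%), against 14.7% of the 15384 promoters of genes measured here. The E-box was in 3 of 29 (10.3%), against 8.6% of those. Over all 27305 promoters the shares were 13.5% and 7.3%. The core also lay in the windows of PSMB3, PSMC4, PSMD1, PSMD5, PSMD9 and PSME4, and the E-box in those of PSMB3 and PSMD9. Of the 4 members that fell in Rec-1, PSMD3 and PSMD12 held the core and PSME3 the E-box, while PSME1, which held the core, had a change of 0.05. A match is a description of letters in a window and does not show binding.

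Among proteasome factors that the rule leaves out, 5 of 14 fell in Rec-1 and none rose, beside 3.62% of all genes that fell, and none was called in SP-49 or Mino. UCHL5, a deubiquitinase of the cap, had 6.69 and 6.84 in Rec-1 GSI, against 7.70 and 7.53 in Rec-1 Mock. Both GSI arrays were low, and UCHL5 fell by 0.85 (limma adjusted p = 0.00333). Its receptor on the cap, ADRM1, fell by 0.61 (adjusted p = 0.0488), a call lost in 15 of 21 recomputations. PSMG1 and PSMG4, chaperones that assemble the core, fell by 0.67 (adjusted p = 0.0139) and 0.70 (adjusted p = 0.0455), and UBE3C, a ubiquitin ligase that works at the proteasome, fell by 0.84 (adjusted p = 0.0435). Taken as the mean of all its probe sets, PSMG4 had −0.15 and UBE3C −0.12, and neither was called, while UCHL5 had −0.48 and was still called. Over the 21 recomputations the Rec-1 call was lost in 1 for UCHL5, 5 for PSMG1, 14 for PSMG4 and 15 for UBE3C. UCHL5 also fell over the average of the lines, by 0.37 (adjusted p = 0.0293), a call lost in 14 of 20 recomputations. Its change in Rec-1 differed from that in Mino by −0.85 (adjusted p = 0.0486), a call lost in 18 of 21.

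Of 14 genes that a block of the proteasome is known to raise (heat shock, oxidative and unfolded-protein stress), 1 rose in Rec-1, beside 2.15% of all genes, and none was called in SP-49 or Mino. The one was HMOX1, which makes heme oxygenase and answers oxidative stress, with 4.33 and 4.12 in Rec-1 GSI, against 3.68 and 3.23 in Rec-1 Mock. The GSI arrays were above both Mock arrays, and HMOX1 rose by 0.77 (limma adjusted p = 0.0330), a call lost in 9 of 21 recomputations. SRXN1, an antioxidant enzyme in the same list, fell over the average of the lines by 0.39 (adjusted p = 0.0482), a call lost in 15 of 20 recomputations. Of 8 genes listed under the NFE2L1 pathway none was called in any line. The list held NFE2L1, NFE2L2, NGLY1, VCP, MAFF, MAFG, KEAP1 and BACH1. Only RNA was measured, so the activity of the NFE2L1 protein was not tested. NFE2L1 itself had 5.51 and 5.89 in Rec-1 GSI, against 5.95 and 5.91 in Rec-1 Mock, a change of −0.23 (adjusted p = 0.422), and 0.06 in SP-49. NFE2L2, which drives antioxidant genes, had −0.12 in Rec-1 and 0.02 in SP-49.

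The immunoproteasome beta subunits replace their constitutive counterparts after interferon: PSMB8 takes the place of PSMB5, PSMB9 that of PSMB6 and PSMB10 that of PSMB7. PSMB9 had 6.62 and 6.30 in Rec-1 GSI, against 5.77 and 5.92 in Rec-1 Mock. The GSI arrays were higher without overlap, and PSMB9 rose by 0.61 (95% interval 0.26 to 0.97, limma adjusted p = 0.0488), a 1.53-fold increase whose call was lost in 13 of 21 recomputations. PSMB8 had 0.05 and PSMB10 0.12 in Rec-1, and none of the 3 was called in SP-49, where PSMB9 had −0.24. The difference of the PSMB9 response between Rec-1 and SP-49 was 0.85 (adjusted p = 0.163).

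**Figure D4:**
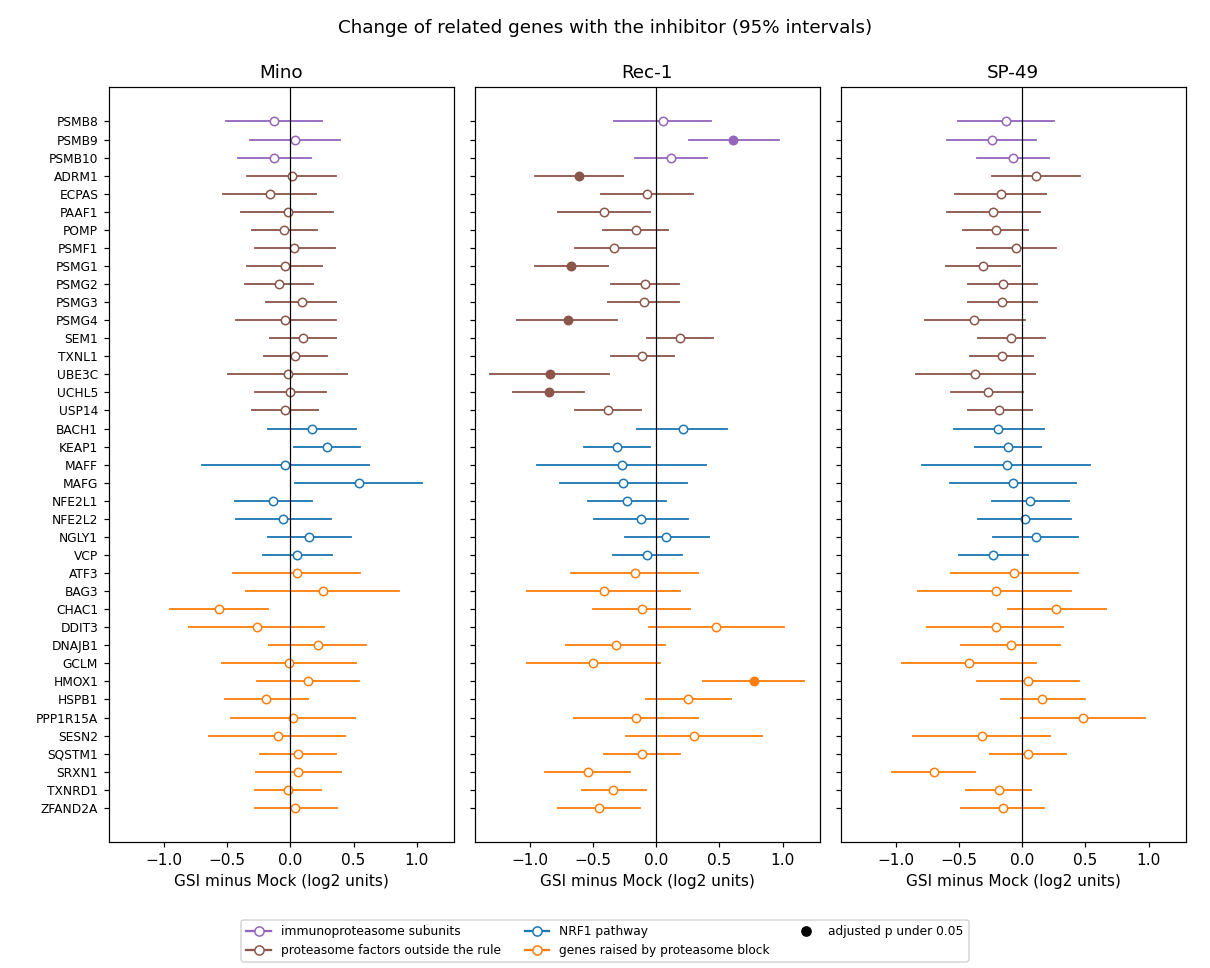
Change (GSI minus Mock, log2 units) with 95% intervals of the 3 immunoproteasome genes, 14 proteasome factors that the rule leaves out, 8 genes of the NFE2L1 (NRF1) pathway and 14 genes raised by a proteasome block; filled points had an adjusted p under 0.05. The filled points are all in Rec-1: 5 factors left of 0, and PSMB9 and HMOX1 right of it.

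Without inhibitor, 27 of 34 members were called in at least 1 pair of lines, beside 41.3% of all genes. Nearly all members are bright and all genes include many dim ones, so the shares in this paragraph are not like for like. The median standard error of a Mock difference was 0.122 among members and 0.164 over all genes. The part of brightness in these counts was not tested. In Mock 14 members were higher and 3 lower in Rec-1 than in Mino (12.8% and 13.3% of all genes), 4 higher and 6 lower in SP-49 than in Mino (13.9% and 11.8%), and 16 higher and 3 lower in Rec-1 than in SP-49 (13.1% and 15.8%). The median difference of the members was 0.27 for Rec-1 minus Mino, 0.07 for SP-49 minus Mino and 0.33 for Rec-1 minus SP-49, beside 0.01, −0.03 and 0.04 over all genes. Rec-1 was above both other lines for 10 of 34 members (6.52% of all genes): PSMA1, PSMA3, PSMB5, PSMB6, PSMB7, PSMC4, PSMC6, PSMD6, PSMD9 and PSMD12. SP-49 was below both for 3 (5.81% of all genes): PSMA7, PSMC2 and PSMD10, with PSMC2 read from its brightest probe set. On the probe sets read, PSMA5, PSMA8, PSMB2, PSMB3, PSMB4, PSMD5 and PSME1 were called in no pair. For Rec-1 minus SP-49 another bright probe set of PSMB4 gave 0.62 (limma adjusted p = 0.0031, over all probe sets). The one read gave 0.04 and a dimmer one 0.07. A dim probe set of PSMB2 gave 1.00 there (adjusted p = 0.00258), and its others −0.05 to 0.22. The counts of called members per pair, 17, 10 and 19 in either direction, depended on single arrays. Rec-1 minus Mino gave 11 without Rec-1 Mock array 1 or Mino Mock array 2, SP-49 minus Mino gave 4 or 5 without any of its 4 Mock arrays, and Rec-1 minus SP-49 gave 8 or 9 without any of its 4.

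By role, the beta ring and the ATPases ran one way between Rec-1 and SP-49. All 7 beta-ring genes had a value above 0 for Rec-1 minus SP-49 (4 called) and all 5 ATPases did (4 called). PSMB5 had 8.09 and 8.22 in Rec-1 Mock, against 7.23 and 7.16 in SP-49 Mock and 7.27 and 7.43 in Mino Mock. Rec-1 was the high line, by 0.96 over SP-49 (limma adjusted p = 7.8e-05) and by 0.80 over Mino (adjusted p = 0.000378), while SP-49 and Mino differed by −0.16, which was not called. PSMB5 in Rec-1 GSI, 7.67 and 7.64, still lay above every SP-49 and Mino array.

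The ATPase PSMC2 gave the widest gap. It had 8.13 and 8.19 in SP-49 Mock and 9.48 and 9.54 in Rec-1 Mock, against 9.52 and 9.52 in Mino Mock. On this probe set SP-49 was the low line, by 1.36 below Mino (2.57-fold, limma adjusted p = 4.68e-06), and Rec-1 lay 1.35 above SP-49 (adjusted p = 4.04e-06), while Rec-1 and Mino differed by −0.01. Its other probe sets, which were dimmer, were also lower in SP-49 than in Mino, by −1.53 and −0.42, but for Rec-1 minus SP-49 they gave 0.44 and −0.36. They put Rec-1 below Mino as well, by −1.09 (adjusted p = 0.0052) and −0.78 (adjusted p = 0.00272). All 3 probe sets had SP-49 below Mino, and they disagreed on where Rec-1 stands.

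Among the members furthest above in Rec-1 relative to Mino were PSMD6, a lid subunit, at 0.88 (8.93 and 8.98 in Rec-1, against 8.02 and 8.12 in Mino), PSMB5 at 0.80 and PSMB7, the trypsin-like subunit, at 0.78. Furthest below were PSMD14, the deubiquitinase of the lid, at −0.66 (8.19 and 8.14 in Rec-1, against 8.79 and 8.85 in Mino), PSME3 at −0.59 and PSMA4, an alpha-ring gene, at −0.46. The arrays of the lines did not overlap for any of these 6. In SP-49 relative to Mino, PSMD2, the scaffold of the cap's base, stood highest at 0.75 (7.78 and 7.52 in SP-49, against 6.81 and 6.98 in Mino), then PSMB7 at 0.41 and PSMD5 at 0.40, which was not called (adjusted p = 0.139), and next PSMD6 at 0.38. Below PSMC2 at the low end were PSME3 at −0.89 and PSMD3 at −0.66. In Rec-1 relative to SP-49, PSMC4, an ATPase, was at 0.85 after PSMC2 and PSMB5, and the low end held PSMA4 at −0.54, PSME4 at −0.44 and PSMA2 at −0.36.

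The immunoproteasome genes differed between Rec-1 and SP-49, and not in 1 direction. PSMB8 had 5.52 and 5.65 in Rec-1 Mock, against 8.07 and 8.11 in SP-49 Mock, a difference of −2.51 (limma adjusted p = 7.06e-07). PSMB9 had 5.77 and 5.92 in Rec-1 Mock, against 7.36 and 7.31 in SP-49 Mock, a difference of −1.49 (adjusted p = 2.39e-05). PSMB10 lay the other way, with 7.81 and 7.98 in Rec-1 Mock, against 6.90 and 6.69 in SP-49 Mock, a difference of 1.10 (adjusted p = 4.82e-05). The constitutive counterparts were all higher in Rec-1 than in SP-49, PSMB5 by 0.96, PSMB6 by 0.57 and PSMB7 by 0.37. Mino lay between the other lines for PSMB8 and PSMB9.

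**Figure D5:**
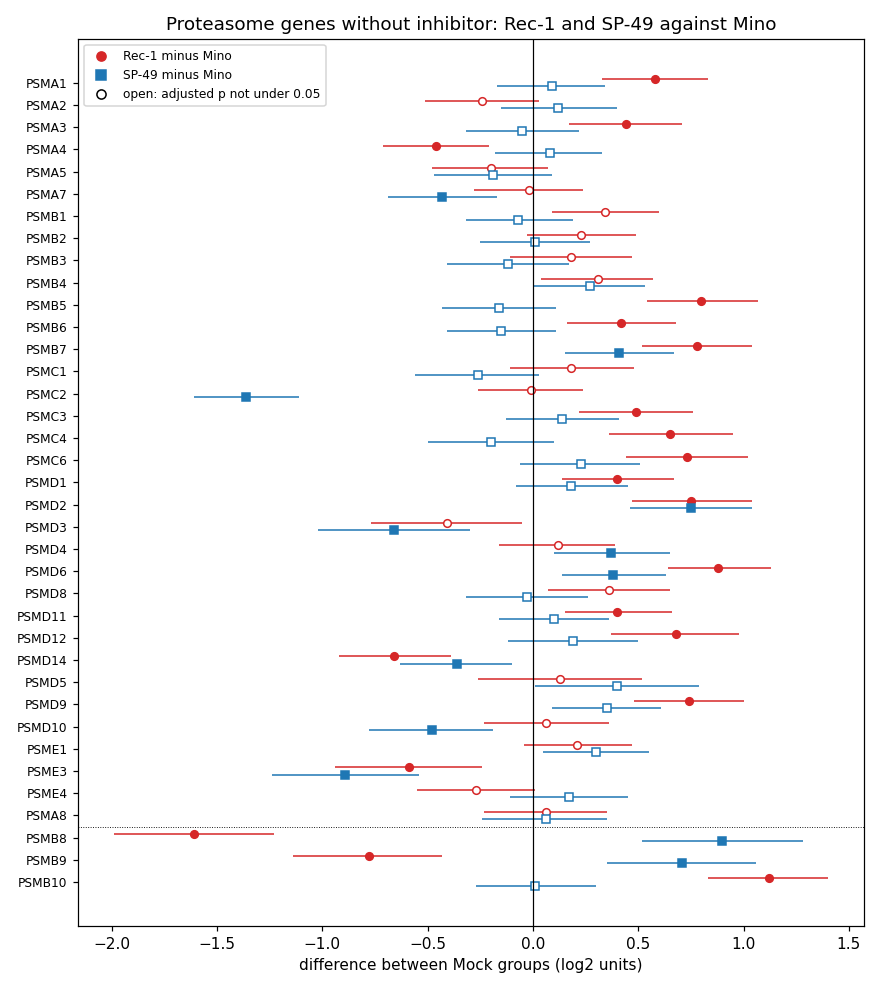
Difference between Mock groups (log2 units) for Rec-1 minus Mino (red circles) and SP-49 minus Mino (blue squares), with 95% intervals, for the 34 proteasome genes and, under the dotted line, the 3 immunoproteasome genes; open symbols were not called. PSMC2 stands out at −1.36 in SP-49, and PSMB8 and PSMB9 lie on opposite sides of 0 in Rec-1 and SP-49.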

How the data were processed

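Total RNA of the 3 lines was hybridised to 1-colour Affymetrix arrays. The deposited values are log2 intensities of 54675 probe sets that the authors had normalized between arrays; RMA and limma are named per the submitters' processing notes, without versions. The log base was inferred from their range, 0.58 to 12.78, and RMA's usual scale. Of the probe sets 41097 named 1 gene, 1801 several and 11777 none; symbols of 41043 were updated by gene number to RefSeq. Each gene was read from its brightest single-gene probe set, leaving 19775 genes.

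limma 3.58.1 (R 4.3.3) fitted 6 group means over the 12 arrays (6 residual degrees of freedom, prior 5.22), with p-values adjusted by Benjamini-Hochberg over all genes and 10 contrasts of treatment, response and line. The procedure was tested on simulated data. The number of arrays limits the precision. Tried besides were other normalizations, filters, probe-set rules, priors, weights, a replicate block and leaving out each array, where a group's lone array is assumed to vary like the others. Named genes were all members, with array values for called members, the member of smallest adjusted p in each line, PSME1 and PSMB5; other genes came from lists of proteasome factors, NFE2L1 pathway, stress, immunoproteasome and marker genes. The 3 members furthest above and below were named in each pair of lines. Members and lists were chosen with earlier results of these data known.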

Additional observations from a re-analysis of the deposited data

Results flagged for a closer look

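Among the genes named here, 4 outside the proteasome rule had responses that differed between lines in the test of the difference itself. UCHL5 had a difference of −0.85 between the Rec-1 and the Mino response (limma adjusted p = 0.0486), and that call was lost in 18 of 21 recomputations. HES1 had −3.73 between Rec-1 and Mino (adjusted p = 0.000263) and −3.44 between SP-49 and Mino (adjusted p = 0.000628), and MYC had −1.67 between Rec-1 and Mino (adjusted p = 0.0117). CD79B, a B cell marker, had 1.07 between Rec-1 and Mino (adjusted p = 0.0165), a call lost in 8 of 21 recomputations. Taken as the mean of all its probe sets, CD79B had a difference of only 0.07 (adjusted p = 0.889). No proteasome subunit met this criterion. With 2 arrays a group, single arrays were not tested for standing apart.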

How the results depend on the processing

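The counts of called members were 0 for Mino, SP-49 and the responses of Rec-1 and SP-49 against Mino under every alternative run. Rec-1 minus SP-49 gave 1 with an intensity trend and robust prior. The Rec-1 count of 4 was 7 with trend and robust prior, 2 without both narrow-range arrays, 1 with quantile normalization or array weights, 0 with only the arrays compared, and 0 to 4 leaving out 1 array. The average's count of 2 was 8 with trend and robust prior, 1 with array weights or every probe set on its own, 0 with quantile normalization, without the narrow-range arrays or at 1.5-fold or more, and 0 to 3 leaving out 1 array. The median member change in Rec-1 was −0.108 with quantile normalization, −0.252 with each array centred on its median and −0.210 to −0.155 leaving out 1 array. In SP-49 it was −0.091 with quantile normalization, −0.155 with every probe set on its own and −0.152 to −0.126 leaving out 1 array, and in Mino −0.063 to 0.027, so its sign there is not fixed. The Mock counts at 1.5-fold or more were 10 of 17 for Rec-1 minus Mino, 4 of 10 for SP-49 minus Mino (6 with only the arrays compared) and 3 of 19 for Rec-1 minus SP-49. Leaving out 1 array gave 11 to 18, 4 to 12 and 8 to 20, the low ends without a Mock array of the pair. The Mock 1 minus Mock 2 difference was correlated over genes with the GSI 1 minus GSI 2 difference. The correlation was 0.046 in Mino, 0.094 in Rec-1 and −0.011 in SP-49, so same-numbered samples showed little sign of pairing. With the replicate block the count was 1 in Rec-1 and 0 for the average. The calls of 11 genes in Rec-1 were lost in 106 of 231 recomputations and those between Mock groups in 36 of 378, with no sign reversed. The causes were not tested.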
